A study of Gallus gallus with 4 samples.

Results

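In the caudal chick trunk, 85 genes had a level that was higher at each successive stage sampled, from embryos with 4 somites (4S) through 7S and 10S to 13S. They were led by genes of the fibroblast growth factor (FGF) pathway, IL17RD, FGF18 and FGF8, whose levels at 13S were 4.25, 3.93 and 3.74 times those at 4S. Together the 85 genes took 0.867% of the unique molecular identifiers (UMIs, 1 per RNA molecule captured) at 4S and 1.21% at 13S, with 0.982% and 1.08% at the stages between. The members were chosen by these same levels, so the stage values below describe them and were not tested. UMIs were summed per stage over cells with at least 2500 UMIs and scaled to the library total (CPM, counts-per-million), and a gene was taken if its CPM was higher at every step, reached 50 CPM at 13S and had at least 10 UMIs at 4S. Ribosomal protein, HOX, collagen, laminin, keratin, histone, respiratory chain, FOX, semaphorin, plexin, ephrin and Eph receptor genes, mitochondrial genes, GREB1 and ANXA2 were left out by name. Of 21328 genes listed, 2350 passed the minimums and were not left out, and the 85 members were 3.62% of these. With the excluded names counted, 109 of 2533 genes (4.3%) had this order, 7 of them mitochondrial and 17 of the other groups left out. Of the members, 68 carried a gene symbol and 17 only an Ensembl identifier, for which no function is given here.

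The samples were untreated chick embryos with no genetic change. Tissue caudal to the third somite, that somite included, was taken from at least 4 embryos per stage, pooled, dissociated and captured as 1 droplet library of RNA 3′ ends. Each stage therefore had no replicate and no difference between stages could be tested. Intervals given for a stage are exact Poisson intervals at 95% and cover counting error only.

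FGFs are secreted ligands that signal through receptor tyrosine kinases and the ERK pathway. In the elongating trunk of vertebrates, FGF8 made in the caudal end keeps axial progenitors and unsegmented mesoderm undifferentiated, and cells leave this domain as they form neural tube or somites. Neuromesodermal progenitors (NMPs) can give both neural and mesodermal cells, preneural cells lie between them and the neural tube, and paraxial mesoderm (PXM) matures through presomitic mesoderm into somites.

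The libraries held between 4025 and 8669 cells after the minimum and between 24490943 and 64453991 UMIs. The 7S library stood apart, with a median of 3758 UMIs per cell against 7182 to 8849 in the others. All 2012 cells removed by the minimum came from it. It also held the highest level of 1085 of the 2350 genes and the lowest of 604. Without 7S, 425 genes were higher at both steps from 4S to 10S and 13S, or 18.1%. All members were among them, which follows from the rule. The share of mitochondrial UMIs was also higher at each stage, with 2.52%, 2.70%, 4.39% and 4.90% from 4S to 13S, and its part in the members' levels was not tested. In all, 73 cell barcodes occurred in a pair of libraries.

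Among the 2350 genes the rising order was no common pattern. It ranked 11 of 24 possible orders by number of genes, 208 genes (8.85%) had the opposite order, and 876 (37.3%) were higher at 13S than at 4S. The median ratio of 13S to 4S was 0.940 over the 2350 genes and 1.36 over the members, which follows from the rule.

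The genes of the FGF pathway had the largest ratios. IL17RD, a transmembrane inhibitor of FGF signalling known from zebrafish and mammals as Sef, was at 13.8, 32.1, 36.8 and 58.9 CPM from the youngest to the oldest stage. The ligand gene FGF18 was at 23.1, 55.7, 57.0 and 91.0 CPM in the same order of stages. FGF8 was at 17.3, 31.8, 47.2 and 64.7 CPM. For IL17RD and FGF8 the intervals of neighbouring stages were separate at every step, while FGF18 at 7S and 10S could not be told apart by counting error. In all 3 genes the level at 4S lay below every later stage, as the rule requires of each member.

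METTL6, a tRNA methyltransferase, followed with 44.6, 89.5, 99.9 and 155 CPM at 4S, 7S, 10S and 13S, a ratio of 3.48. Genes that act on membranes and actin came next. ANXA5, a calcium-dependent phospholipid-binding annexin, was at 47, 83.4, 106 and 128 CPM. COTL1, an actin-binding protein of the coactosin family, was at 75.1, 137, 176 and 197 CPM. Both were separate at each step, with ratios of 2.72 and 2.62, and their largest step was the earliest. GNG10, the gamma subunit of a heterotrimeric G protein, was at 30.1, 42.1, 47.1 and 76.4 CPM, with its largest step between 10S and 13S.

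Genes with known roles in mesenchyme, epithelium and neural tissue were also among the leading members. PRRX1, a homeobox transcription factor of limb and lateral plate mesenchyme, was at 25.6, 48.0, 49.5 and 59.1 CPM. FBLN1, an extracellular matrix glycoprotein, was at 33.1, 55.6, 56.5 and 66.2 CPM. In both, 7S and 10S overlapped within counting error. S100A11, a calcium-binding protein found in epithelia, was level at 33.6 CPM at 4S and 7S and reached 42.4 at 10S and 77.0 at 13S. FABP7, a fatty acid-binding protein of neural progenitors and glia, had the largest difference in CPM of any member, from 483 at 4S over 505 at 7S and 762 at 10S to 948 at 13S. MYCN, a transcription factor that drives growth and proliferation, was at 52.4, 77.2, 85 and 94.8 CPM.

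**Figure D1:**
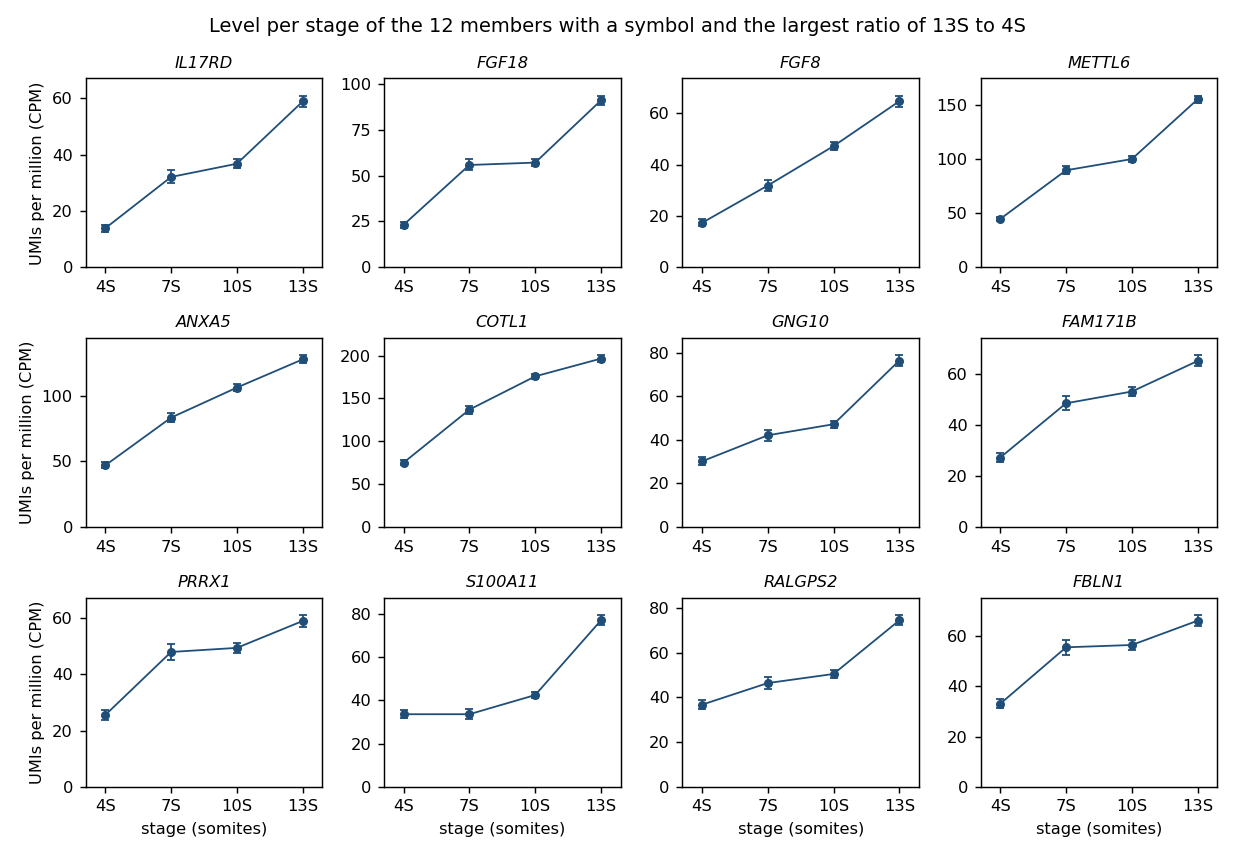
Level in CPM (vertical axis, starting at 0) at each stage (horizontal axis) of the 12 members with a symbol and the largest ratio of 13S to 4S. Points are single libraries and bars are exact Poisson intervals at 95%. IL17RD reaches 58.9 CPM at 13S from 13.8 at 4S, while S100A11 is level between 4S and 7S.

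Several members of high level had smaller ratios. HSP90AB1, the constitutive cytosolic HSP90 chaperone, was the most abundant member at 13S and was at 796, 940, 952 and 1022 CPM. CST3, the secreted protease inhibitor cystatin C, was at 246, 299, 310 and 353 CPM. TMEM167A, a small protein of the secretory pathway, was at 169, 184, 227 and 264 CPM, and TXNDC17, a thioredoxin-like protein, was at 314, 316, 368 and 399 CPM. POP5, a subunit of RNase P, was at 129, 157, 180 and 209 CPM, and TCEA2, a transcription elongation factor, was at 83.1, 90.4, 116 and 161 CPM. Of these, TMEM167A, POP5 and TCEA2 were separate at every step.

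Further leading genes included RALGPS2, an exchange factor for Ral GTPases, at 36.7 CPM at 4S and 74.5 at 13S, and FAM171B at 27.3 and 65.2. SCOC, a coiled-coil protein of the Golgi, went from 27.9 to 52.8 CPM, and TJP1, the tight junction scaffold ZO-1, from 29.6 to 51.1. LIMD2 was at 49.3 and 84.9 CPM, LSP1P1 at 43.0 and 73.0, and MARCKS, a membrane-bound regulator of actin, at 85.7 and 139. The intervals of 4S and 13S were separate in each of these 7 genes.

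For most members the difference was modest. Ratios ran from 1.02 to 4.25, with 14 members at 2 or more, 32 at 1.5 or more and 16 under 1.2. All 3 steps had separate intervals in 22 members, 2 steps in 34, 1 step in 21 and none in 8. The intervals of 4S and 13S overlapped in 2 members, THOP1 and SUMO3, so that for these the order was within counting error. The largest step was from 4S to 7S in 36 members, from 7S to 10S in 19 and from 10S to 13S in 30. The members just inside the minimum at 13S were TJP1, TNFAIP1 and NRIP1 at 51.1, 51.3 and 52.0 CPM, and just outside it lay OSBPL9, LDHA and HSPB1 at 49.4, 49.2 and 49.0 CPM. Every member was far above the minimum of UMIs at 4S, with 517 in the lowest, IL17RD. S100A11, THOP1 and NUDT1 met the order by the smallest step, S100A11 with 33.5556 CPM at 4S and 33.5634 at 7S. BLOC1S5, TIMM50 and RNMT missed it most narrowly, BLOC1S5 with 76.287 CPM at 10S and 76.2785 at 13S.

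**Figure D2:**
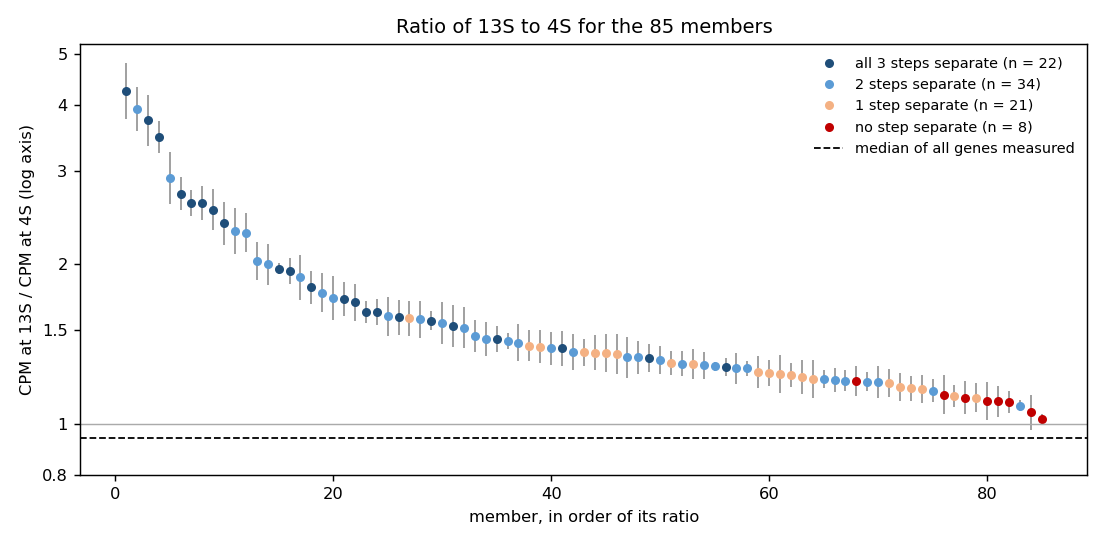
Ratio of CPM at 13S to CPM at 4S (vertical, log axis) for the 85 members in order of that ratio. Grey lines run from the lower limit at 13S over the upper limit at 4S to the upper limit at 13S over the lower limit at 4S, colours give the number of steps with separate intervals, and the dashed line is the median of the 2350 genes, 0.940. Members with ratios of 1.5 or more mostly have 2 or 3 separate steps.

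The members were set against 23 lists of genes by function and tissue. Only 16 members were in any list. Members made up 3.62% of the 2350 genes, and no list was tested against that share. The list of WNT, BMP, FGF, NOTCH and hedgehog signalling held 3 of its 29 measured genes as members (10.3%), FGF18, FGF8 and the helix-loop-helix inhibitor ID4. The other FGF genes of the list that passed the minimums did not share the order. The ligand FGF19 was at 96.8, 125, 76.9 and 67.8 CPM from 4S to 13S, the feedback inhibitor SPRY2 at 104, 632, 173 and 205, the ERK phosphatase DUSP6 at 49.6, 98.2, 55.5 and 77.2, and the target ETV5 at 34.8, 34.4, 48.6 and 57.7. ETV5 missed the order by its step from 4S to 7S alone, and SPRY2 and DUSP6 were at their highest in the 7S library. Below the minimum at 13S the order did occur in the ligand FGF3, at 2.35, 2.86, 3.09 and 4.19 CPM. It also occurred in the target ETV4, at 1.77, 2.04, 2.08 and 2.93 CPM, and in the inhibitor SPRY1, at 0.428, 0.531, 0.636 and 1.48 CPM. All 3 were named after their values were seen. Other FGF genes of the list below the minimum are not given here, so these 3 do not show how common the order was. With no minimum, 6.16% of 20969 genes had the order, and no intervals are given for these low levels.

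Of the cell cycle regulators 3 of 17 were members (17.6%, against 3.62% of the 2350 genes). They were MYCN, CDK6 and GADD45A, at ratios of 1.81, 1.40 and 1.13. Of 38 genes of actin, tubulin and intermediate filaments 3 were members, S100A11, MARCKS and the nuclear lamin LMNB1. Single members came from the lists of neural tube (FABP7, 1 of 16), lateral plate and limb field (PRRX1, 1 of 8), extracellular matrix (FBLN1, 1 of 12), cell adhesion (TJP1, 1 of 9), the retinoic acid pathway (NRIP1, a nuclear receptor co-repressor, 1 of 6), heat shock genes (HSP90AB1, 1 of 14) and the proteasome and ubiquitin (SUMO3, 1 of 36). The other 13 lists had none, among them paraxial mesoderm and somite (0 of 7 measured), RNA binding (0 of 37), translation factors (0 of 37) and developmental timing and chromatin (0 of 20). Against a share of 3.62%, counts of 0 or 1 in lists this short say little about a function. Median ratios of whole lists ranged from 0.472 for blood and vessels, with 1 gene measured, to 1.34 for paraxial mesoderm, against 0.940 for all genes measured.

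To find the tissues that carry these genes, cells were clustered and named from marker genes. The members were kept out of the genes used for clustering and out of the marker lists. They could still take places among the 10 leading genes of a cluster, which were part of its naming. Of 40 clusters, 37 could be named, in 15 classes, and 971 cells (3.83%) stayed unnamed. A class is written with the ending -like, because the names were rebuilt here and no annotation of the cells was used. There were 14 classes with enough cells in every library. One of them was a single cluster led by ACTA2, COL3A1 and LUM, called the ACTA2 cluster here, because only 1 of its 10 leading genes was among the cardiac markers that it was matched to. The primitive streak-like class held 3 clusters, all with MESP1 and none with TBXT among their 10 leading genes. Those of 733 and 492 cells also had KDR, a blood island marker, there. Each of the 3 clusters likewise had only 1 marker of its class there. The same held for lateral plate mesoderm-like clusters of 798, 785, 677, 616 and 269 cells, and for PXM-like clusters of 808, 711 and 142 cells. Of these lateral plate clusters, all but that of 798 cells also had OSR1, an intermediate mesoderm marker, there. The cluster of 616 cells scored higher on the cardiac markers, none of which was among its leading genes. The somitic mesoderm-like class was made up of 2 clusters that each had 3 markers of the class detected but none among the 10 leading genes, where FST and TWIST1 stood in both. In the PXM-like class, clusters of 711 and 477 of its 4524 cells had FGF8 and TBXT among their 10 leading genes. Neither MSGN1 nor TBX6 stood there. In the preneural-like class 1 cluster, with 701 of its 2010 cells, held 3 neural markers (HES5, SOX1 and SOX21) and 2 preneural ones (HES5 and CA2) among its 10 leading genes. It was kept in the values for preneural-like cells, and the tests below were also run without it, an alternative chosen after the data were seen.

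In the classes drawn here, levels within classes made up most of the difference between 4S and 13S. The clustering corrected across libraries, hence across stages, with a penalty that favours clusters of like stage shares. How far this lowers the part from the shares of classes was not tested. The difference of each member was divided exactly into the part from levels within classes and the part from the classes' shares of UMIs. Over the 85 members, whose summed difference was 3405 CPM, 94.9% came from levels within classes, and the median member had 97.0%. SUMO3 was the single member under 50%, at 3.31%. With each library clustered on its own, that is with its own variable genes, no correction across libraries and members again left out, the part within classes was 75.8% and the median member had 76.7%. Shares of classes did differ between stages. Preneural-like cells went from 5.48% of UMIs at 4S to 11.1% at 13S, surface ectoderm-like cells from 7.85% to 10.8%, and lateral plate mesoderm-like cells from 22.5% to 16.7%. With every class held at its mean share, 76 of the 85 members kept the rising order, and 46 did so with libraries clustered on their own.

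PXM-like cells carried 21.2% of the summed difference by their own levels, with a mean of 18.1% of the UMIs. Lateral plate mesoderm-like cells carried 17.0% with 20.6% of the UMIs, surface ectoderm-like 10.7% with 8.78% and preneural-like 10.6% with 8.51%. Primitive streak-like cells carried 9.98% with 8.63% of the UMIs, presomitic mesoderm-like 5.74% with 6.78% and NMP-like cells 4.10% with 2.88%. The median ratio of 13S to 4S over the members within a class was 1.41 in primitive streak-like, 1.39 in NMP-like and lateral plate mesoderm-like, 1.35 in PXM-like and 1.31 in preneural-like cells. It was 1.29 in neural-like, 1.24 in somitic mesoderm-like, surface ectoderm-like and endoderm-like, 1.2 in notochord-like and 1.14 in blood island-like cells. Of 1190 pairs of member and class, 520 were higher at 13S than at 4S with separate intervals, 26 were lower and 644 overlapped, a split that follows from the rule. Of the 2350 genes, between 27.2% and 47.6% were higher at 13S than at 4S within a class, overlapping intervals included. Counted in the same way, between 54 and 82 of the 85 members were higher within a class, which the rule favours. The fewest were in blood island-like cells, and the most in primitive streak-like and lateral plate mesoderm-like cells. No share with separate intervals is given for the 2350 genes. Higher pairs with separate intervals were most frequent in the large lateral plate mesoderm-like and PXM-like classes, with 70 and 63 members. They were least frequent in endoderm-like, notochord-like and blood island-like classes, with 18 each. NMP-like cells had 40 with 2.88% of the UMIs, and notochord-like cells had 18 with 2.95%. The part of class depth in this count was not tested.

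FGF8 was highest in caudal progenitors. In NMP-like cells it was at 77.5, 113, 160 and 192 CPM from 4S to 13S, and in PXM-like cells at 43.7, 72.6, 119 and 147 CPM. Preneural-like cells were at 38.1, 70.4, 90.5 and 101 CPM and notochord-like cells at 51.2, 80.5, 83.8 and 99.1 CPM. Within each of these 4 classes FGF8 was higher at every step. FGF8 in primitive streak-like cells was at 11.2 CPM at 4S and 130 at 13S. Neural-like cells held between 0 and 1.04 CPM of FGF8 and somitic mesoderm-like cells between 1.25 and 3.15 CPM, all far below the progenitor classes. Levels in PXM-like cells accounted for 41.0% of the difference of FGF8 between 4S and 13S and those in primitive streak-like cells for 21.7%. The PXM-like part includes the clusters with FGF8 and TBXT among their leading genes and was not divided further.

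FGF18 was a gene of the mesodermal side. In PXM-like cells it was at 76.9, 156, 180.5 and 236 CPM from 4S to 13S, and in presomitic mesoderm-like cells at 49.9, 121, 124 and 193 CPM. In preneural-like cells FGF18 was at 31.7, 36.5, 15.5 and 23.3 CPM, with no separation of 4S from 13S. Somitic mesoderm-like cells were at 0.772 to 2.83 CPM, below every value in PXM-like and presomitic mesoderm-like cells. IL17RD covered both sides of the progenitor domain. In preneural-like cells IL17RD was at 27.8, 71.5, 70.7 and 119 CPM, in NMP-like cells at 27.5, 68.8, 72.0 and 115 CPM and in PXM-like cells at 21.5, 53.8, 65.1 and 91.0 CPM. In neural-like cells IL17RD stayed between 0.914 and 9.20 CPM.

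METTL6 had its highest levels in the same classes. It was at 73.6, 167, 210 and 306 CPM in PXM-like cells and at 75.4, 149, 173 and 291 CPM in NMP-like cells from 4S to 13S. In neural-like cells METTL6 was at 32.1 to 38.4 CPM and in surface ectoderm-like cells at 41.0 to 47.2 CPM, with 4S and 13S not separate in either. KIF26A, an atypical kinesin, was at 102, 108, 134 and 146 CPM in PXM-like cells, and at 67.5, 83.8, 109 and 157 CPM in primitive streak-like cells. Levels in lateral plate mesoderm-like cells gave 30.0% of the difference of KIF26A between 4S and 13S, and those in PXM-like cells 28.0%. In neural-like cells KIF26A was at 0 to 2.07 CPM.

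**Figure D3:**
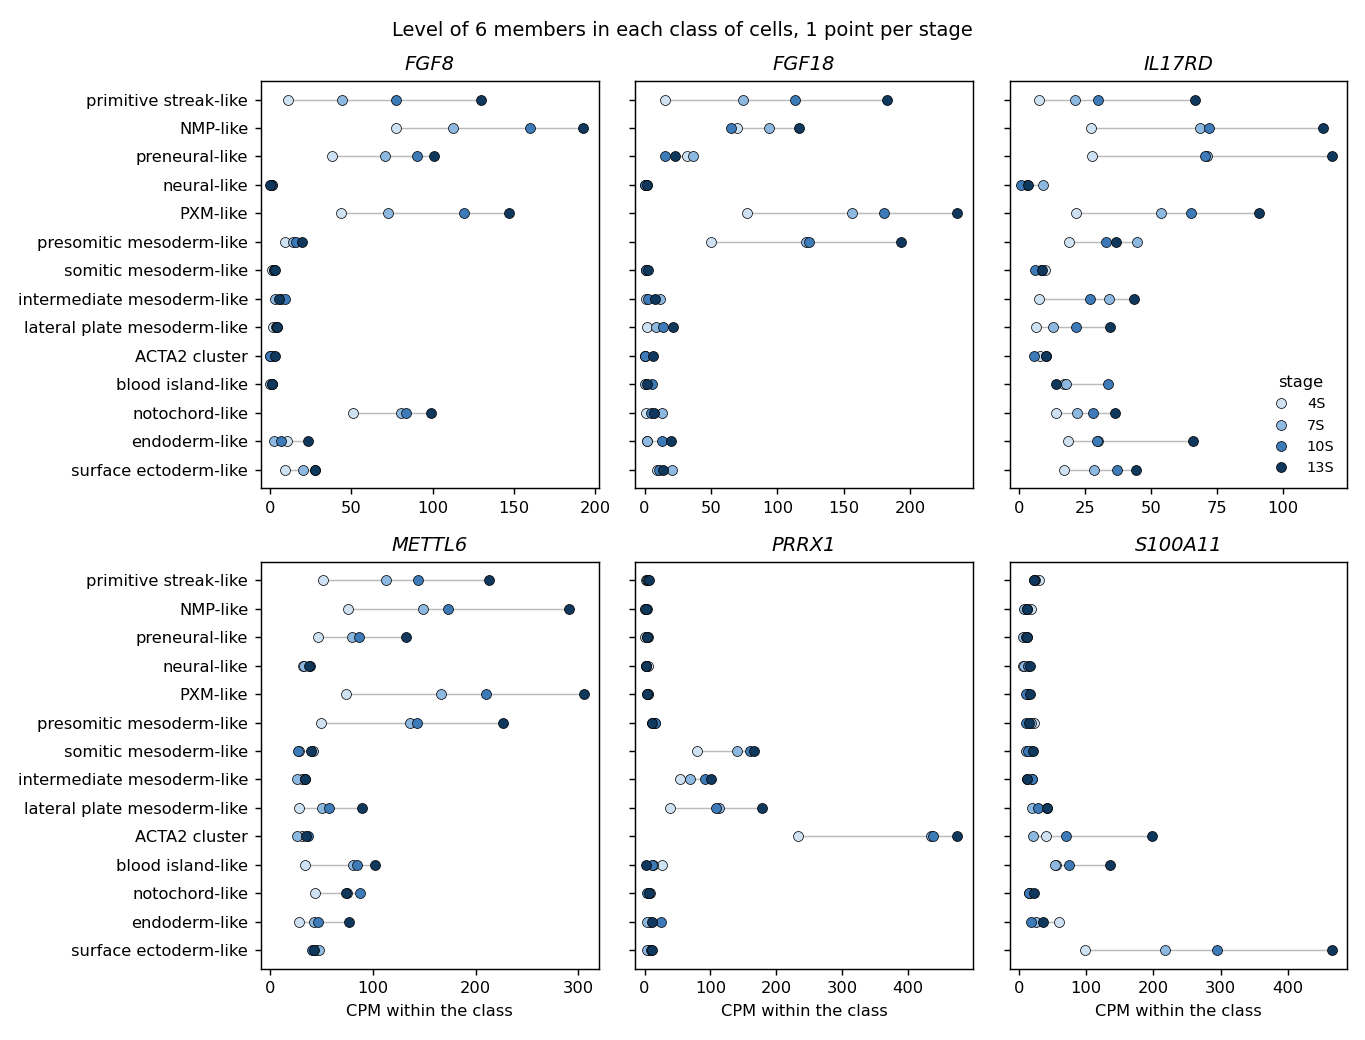
Level in CPM within a class (horizontal axes, different scales) of 6 members in 14 classes of cells (vertical axis), with 1 point for each stage from 4S (light) to 13S (dark). FGF8, IL17RD and METTL6 are high in NMP-like and PXM-like cells, and FGF18 in PXM-like and presomitic mesoderm-like cells. All of these are low in neural-like and somitic mesoderm-like cells. PRRX1 is highest in the ACTA2 cluster and S100A11 in surface ectoderm-like cells.

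Other members differed between 4S and 13S mainly in other tissues. S100A11 in surface ectoderm-like cells was at 98.9, 217, 295 and 466 CPM, and these cells gave 78.6% of its difference. In the ACTA2 cluster S100A11 was at 40.2, 20.3, 70.5 and 197 CPM, while PXM-like cells stayed between 10.7 and 16.6 CPM. PRRX1 in lateral plate mesoderm-like cells was at 38.4, 113, 108 and 178 CPM, with 81.4% of its difference. It was at 80.3, 140, 160 and 167 CPM in somitic mesoderm-like cells and at 233, 434, 438 and 475 CPM in the ACTA2 cluster. NRIP1 in neural-like cells was at 22.8, 54.2, 71.9 and 120 CPM, and in intermediate mesoderm-like cells at 53.7, 197, 209 and 194 CPM. The largest parts of the difference of NRIP1 came from elsewhere, with 26.7% from lateral plate mesoderm-like and 19.3% from somitic mesoderm-like cells.

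FABP7 was highest in surface ectoderm-like cells, at 1177, 1674, 2456 and 2513 CPM, and in preneural-like cells it was at 500.2, 665, 1107 and 1819 CPM. In somitic mesoderm-like cells FABP7 was instead lower at 13S than at 4S, at 305 and 144 CPM. MYCN in primitive streak-like cells was at 23.6, 59.8, 84.3 and 101 CPM and in lateral plate mesoderm-like cells at 35.2, 83.9, 104 and 124 CPM. In NMP-like, preneural-like and neural-like cells MYCN lay between 74.6 and 99.6 CPM at all stages, and 4S and 13S were not separate. CDK6, a kinase of the G1 phase, was at 60.1, 127, 162 and 191 CPM in preneural-like cells and at 54.0 to 61.2 CPM in PXM-like cells, without a separation of 4S from 13S in the latter. CST3 in notochord-like cells was at 409, 619, 695 and 1000.1 CPM.

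GNG10 had a neural and progenitor pattern. It was at 46.4, 103, 133 and 249 CPM in preneural-like cells and at 41.8, 81.3, 117 and 228 CPM in NMP-like cells, while surface ectoderm-like cells held 8.22 to 9.89 CPM. ANXA5 had its highest levels in presomitic mesoderm-like cells, at 186, 270, 338 and 383 CPM, and was also higher at each step in PXM-like cells, at 45.0, 81.1, 138 and 203 CPM. In somitic mesoderm-like cells ANXA5 was lower at 13S than at 4S, at 94.7 and 131 CPM. TCEA2 was at 94.7, 120, 191 and 281 CPM in PXM-like cells and at 109, 109, 155 and 309 CPM in presomitic mesoderm-like cells.

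Values at 13S were above those at 4S in all 14 classes for 15 members and for 2.72% of the 2350 genes, as the rule favours. These included POP5, SCOC, HP1BP3, CST3, PHF6, LRRC59, CDK6, FERMT2, KDM3A and CAPRIN1. None of the 15 had separate intervals in all 14 classes, and the number of classes with separate intervals ran from 4 for CDK6 to 12 for a gene without a symbol, with 11 for SCOC and HP1BP3 and 5 for KDM3A and CAPRIN1. The median member was higher in 11 of the 14 classes, a count not made over the 2350 genes. HP1BP3, a heterochromatin protein, was within 74.4 to 134 CPM over the classes at 4S and 114 to 188 CPM at 13S. POP5 was at 81.4 to 168 CPM at 4S and 101 to 276 CPM at 13S over the classes. No member was higher in fewer than 7 classes, which the rule favours too. COTL1 was higher with separate intervals in 11 classes, but endoderm-like cells, where it was most abundant, were at 389, 444, 352 and 352 CPM.

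**Figure D4:**
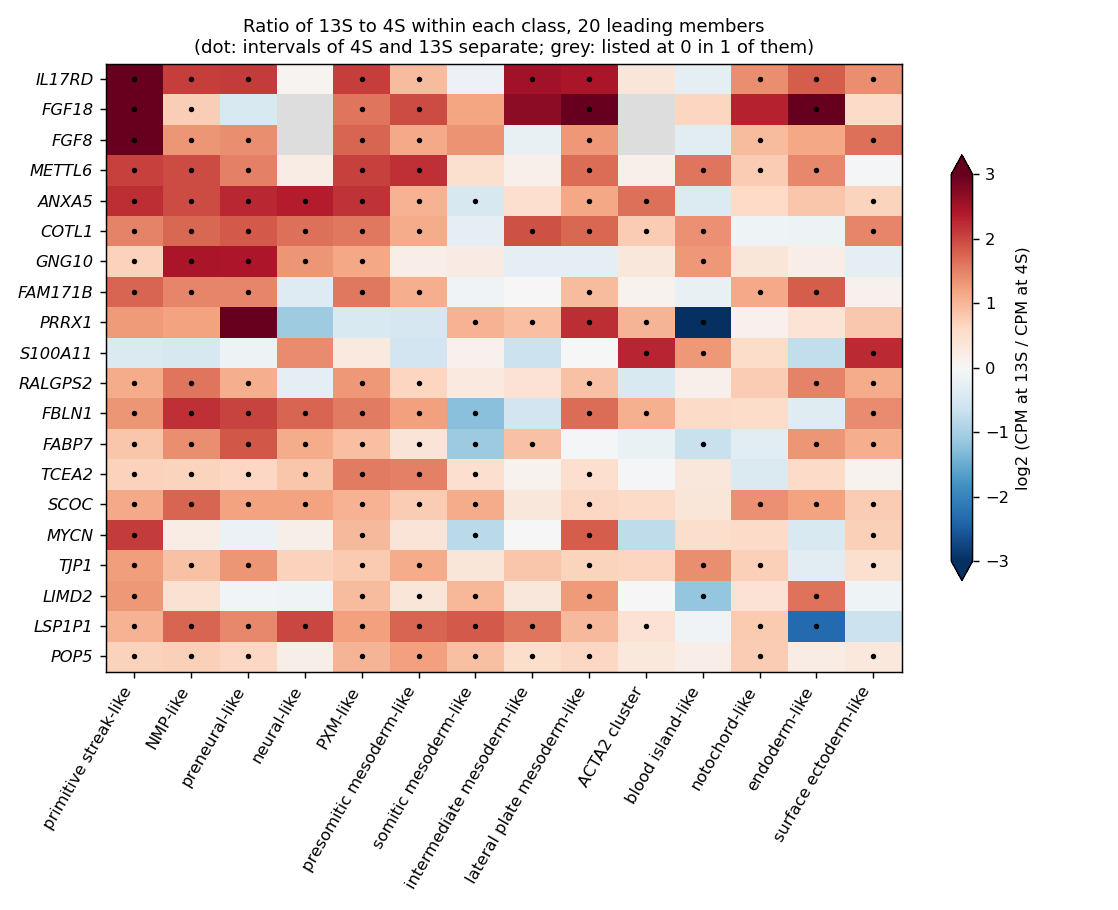
Log2 ratio of CPM at 13S to CPM at 4S within each of 14 classes (columns) for the 20 members with a symbol and the largest ratios (rows), from blue (lower at 13S) to red (higher), with the colour scale ending at 3. Black dots mark pairs whose Poisson intervals at 4S and 13S are separate. IL17RD, METTL6, COTL1 and POP5 are red with dots in most classes, whereas S100A11 has dots in 3.

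Whether a member differed between tissues was tested over the 4 libraries, a contrast that the rule did not use directly. The rule took sums over all cells, so it can favour genes high in classes whose share of UMIs grew. Preneural-like cells went from 5.48% to 11.1% of UMIs, and lateral plate mesoderm-like cells from 22.5% to 16.7%. The shares of members called in a class are therefore not free of the rule. UMI sums of each class and of all other cells in the same library were tested in edgeR (quasi-likelihood), with the library as block and an adjusted p under 0.05 over all genes. The classes were drawn from other genes of the same cells, so a call says how steadily a gene differed over the libraries and not that the class is independent of it. Over the 14 classes, members were called higher in 230 of 1190 pairs (19.3%) and lower in 302 (25.4%). Over all genes tested the shares were 10.9% and 11.8%, and over the 2350 genes that passed the minimums 14.9% and 15.2%. The members PRRX1, FGF8 and FGF18 were called in all 14 classes. There were 43 members called in at least 7 classes, and 4 members, all without a symbol, were called in none. The number of classes per gene was not counted over the 2350 genes, so these counts describe the members only.

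In NMP-like cells 26 members (30.6%) were called higher, against 9.30% of all genes and 22.9% of the 2350 genes, and 14 lower, against 11.3% and 10.7%, with 9 lower without the 10S library. Among the higher members FGF8 led, higher by 1.92 ± 0.09 on the log2 scale (SE, adjusted p = 4.6e-21), before GNG10 with 1.34 and ID4 with 1.22. In preneural-like cells 26 members were called higher (all genes 11.8%, and 19.1% of the 2350 genes) and 18 lower (12.8%, and 12.3% of the 2350 genes), led by GNG10, IL17RD and FGF8 at log2 differences of 1.68, 1.2 and 1.07. These counts became 24 and 15 without the cluster of mixed markers, and 14 were higher without the 10S library. PXM-like cells had 22 higher (25.9% of members, 12.2% of all genes and 21.5% of the 2350 genes) and 12 lower (14% of all genes and 9.06% of the 2350), led by FGF18 at 2.42 ± 0.08 (adjusted p = 6.2e-08), FGF8 at 1.85 and KIF26A at 1.35. Primitive streak-like cells had 18 higher (10.1%, and 19% of the 2350 genes) and 15 lower (10.7%, and 8.3% of the 2350 genes), led by KIF26A, ID4 and FGF18 at 0.85, 0.84 and 0.81, and 10 were higher without 10S. Presomitic mesoderm-like cells had 21 higher (11.6%, and 18.4% of the 2350 genes) and 17 lower (12.8%, and 12% of the 2350 genes), with ANXA5 at 2.05, FGF18 at 1.30 and LIMD2 at 1.17, while FGF8 was called lower there with a log2 difference of -1.5. The balance of these counts turned with the setting, to 11 higher and 22 lower at resolution 2, 11 and 16 with each library clustered on its own, 16 and 19 with members kept in the clustering, and 10 and 14 without 10S. Without 4S, 7S or 13S the counts were 20 and 25, 12 and 14, and 13 and 14.

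In the other classes the leading members were mostly different. Shares in parentheses are again those of all genes tested and of the 2350 genes. Somitic mesoderm-like cells had 12 members higher (9.26%, and 8.94% of the 2350 genes) and 24 lower (11.4%, and 16.8% of the 2350 genes), led by PRRX1, NRIP1 and LMNB1 at log2 differences of 1.75, 1.12 and 0.71. The higher ones were 5 without 10S and 6 without 7S, and the lower ones 15 without 10S. Neural-like cells had 9 higher (9.03%, and 7.28% of the 2350 genes) and 25 lower (10.6%, and 14.2% of the 2350 genes), led by COTL1, CLSTN1 and PHF6 at 0.72, 0.51 and 0.46. Of the neural-like calls 2 were higher without 10S, 4 without 7S and 4 without 13S, and 15 were higher at resolution 2. Notochord-like cells had 14 higher (15.3%, and 12% of the 2350 genes) and 37 lower (16.6%), and 40.4% of the 2350 genes were also lower there, near the 43.5% of the members. These became 8 and 24 without 10S. NRIP1, CST3 and FGF8 were higher in notochord-like cells by 1.51, 1.19 and 1.1. Lateral plate mesoderm-like cells had 18 higher (13.0%, and 27.2% of the 2350 genes) and 22 lower (14%, and 9.79% of the 2350 genes), led by PRRX1, FBLN1 and LSP1P1 at 1.77, 1.09 and 0.70, and 11 were higher without 10S or with each library clustered on its own. The ACTA2 cluster had 13 higher (7.61%, and 8.72% of the 2350 genes) and 24 lower (8.77%, and 11.8% of the 2350 genes), led by PRRX1, LSP1P1 and CDK6 at 3.41, 1.98 and 1.87.

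Surface ectoderm-like cells had 23 members higher (17.1%, and 17.8% of the 2350 genes) and 24 lower (15.6%, and 20.3% of the 2350 genes), led by S100A11 at 3.46, FABP7 at 1.88 and ANK3, the membrane scaffold ankyrin-G, at 1.85. Without 10S 15 were higher. Endoderm-like cells had 11 higher (12.3%, and 11.7% of the 2350 genes) and 26 lower (12.8%, and 24.6% of the 2350 genes), led by FBLN1, COTL1 and ANK3 at 1.99, 1.5 and 1.19. Blood island-like cells had 13 higher (11.0%, and 9.91% of the 2350 genes) and 27 lower (9.83%, and 16.3% of the 2350 genes), led by TNFAIP1, S100A11 and TJP1 at 1.06, 0.79 and 0.68. Intermediate mesoderm-like cells, the smallest of these classes, had 4 higher (2.70%, and 4.04% of the 2350 genes) and 17 lower (4.26%, and 6.13% of the 2350 genes), 11 lower with each library clustered on its own, with NRIP1 and PRRX1 higher by 1.84 and 0.82.

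Later and earlier cells of a lineage were then compared within each library. Between somitic mesoderm-like and PXM-like cells, 12 of 85 members were called higher in the somitic cells, against 11.9% of all 9176 genes, and 25 lower, against 11.6%. Among the 2350 genes that passed the minimums the shares were 9.74% and 18.7%, against 14.1% and 29.4% of the members. FGF18 had the largest difference, with a log2 difference of -6.73 ± 0.16 (adjusted p = 1.1e-07) and levels of 0.772 to 2.83 CPM against 76.9 to 236 CPM. Lower too were FGF8, IL17RD, METTL6 and KIF26A, with log2 differences of -5.60, -2.98, -2.52 and -2.44. The PXM-like side includes the clusters with FGF8 and TBXT among their leading genes, and the comparison was not run without them. PRRX1 was higher by 4.74 ± 0.23 (adjusted p = 4.1e-06), with 80.3 to 167 CPM in somitic cells against 4.04 to 6.00 CPM in PXM-like cells, followed by NRIP1 at 1.12 and ANK3 at 0.76. Without the library as block, 3 members were called higher and 15 lower. The higher calls were 6 without the 10S library and 7 without 7S.

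Between neural-like cells and the preneural-like and NMP-like cells together, PRRX1 was too low to be tested, and 7 of the other 84 members were called higher in the neural cells (all genes 6.64%) and 19 lower (5.94%). Of the 2350 genes that passed the minimums 4.39% were higher and 9.64% lower. FGF8, KIF26A, FGF18 and IL17RD were lower with log2 differences of -7.90, -6.08, -5.16 and -4.68. The fitted sizes for FGF8 and KIF26A rest on neural-like levels of at most 1.04 and 2.07 CPM, with 0 in the 13S library, and are therefore imprecise. ANXA5 was higher in neural-like cells by 1.22 ± 0.12 (adjusted p = 4.4e-05), NRIP1 by 1.18 and AKAP9, a scaffold of the centrosome and Golgi, by 0.62. ANXA5 was at 25.9, 123, 162 and 132 CPM in neural-like cells and at 13.2 to 73.1 CPM in preneural-like cells, so that the groups overlapped between stages and not within a stage. Without the cluster of mixed markers 7 members were called higher and 20 lower. The 7 higher calls were 4 without 7S, 1 without 10S and 3 without 13S. The 26 calls became 16 without the 10S library, 17 without 13S and 9, all lower, without the library as block.

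Members lower in both comparisons numbered 13 of 84, against 5.84% of the genes that passed the minimums and were tested in both. Those with a symbol were FGF8, FGF18, IL17RD, METTL6, FAM171B, RALGPS2, FABP7, KIF26A, SUMO3, CHIC1 and OPA3, the last pair named after their values were seen. Without the 7S library 11 of the 13 were again lower in both, and without the cluster of mixed markers all 13 were. Members higher in both comparisons, against 2.09% of those genes, were NRIP1, ANK3, AKAP9 and GADD45A, a stress-response gene that inhibits the cell cycle, of which 1 was again called in both without 7S.

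**Figure D5:**
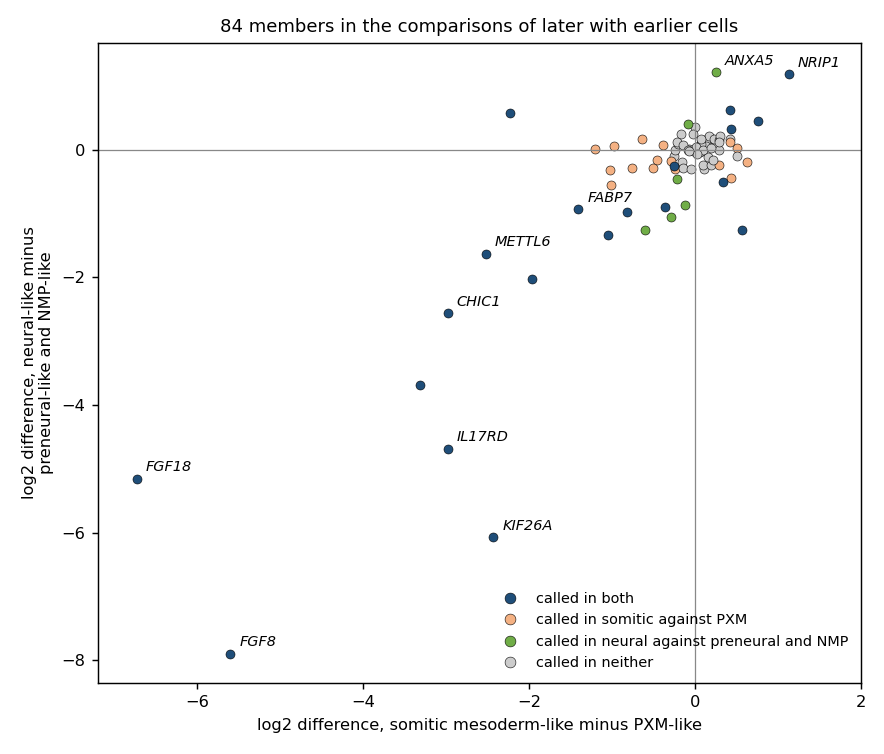
Log2 difference between somitic mesoderm-like and PXM-like cells (horizontal axis) and between neural-like and preneural-like with NMP-like cells (vertical axis) for 84 members, coloured by the comparison in which edgeR called them. FGF8, FGF18, IL17RD, KIF26A and METTL6 lie at the lower left, lower in the later cells of both lineages, while NRIP1 and ANXA5 lie at the top, higher in neural-like cells. PRRX1 was tested in the somitic comparison only and is not drawn.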

How the data were processed

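The values are raw UMI counts per gene and cell, deposited for 4 libraries, 1 per stage, of single-cell 3′ RNA sequencing. The authors aligned reads to the GRCg6a chicken build with Cell Ranger 4.0.0, used dropEst to count exonic and intronic UMIs, and removed cells by mitochondrial share, total count and Scrublet doublet score before deposit. Cells under 2500 UMIs were removed here and no further doublet call was made. Of 21328 genes, 8937 are listed by Ensembl identifier only. No annotation of the cells was used. Cells were clustered with scanpy 1.11.5 on 1218 variable genes, with 21 members left out of that set, 40 principal components, a Harmony correction across libraries, 10 neighbours and Leiden (leidenalg 0.10.2) at resolution 3.5, and clusters were named from marker lists. The difference of each member between 4S and 13S was divided exactly into levels within classes and shares of classes, with means over both stages as weights.

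UMI counts were summed per library and class and tested with edgeR 4.0.16 (R 4.3.3, quasi-likelihood test, filter by expression, TMM factors), with the library as block and Benjamini-Hochberg adjustment over all genes tested. Both sums of a comparison come from the same library, which pairs them, and the correlations of their deviations ran from 0.141 to 0.659. Between stages there was no test, since each had 1 library. The 4 libraries are different stages, so p-values measure the spread over stages. On simulated data with 200 genes changed 2-fold or 3-fold at a fixed dispersion, the test recovered 53.5% for NMP-like against other cells (11187 genes). It recovered 72% for somitic mesoderm-like against PXM-like cells (9176 genes) and 80.5% for the neural comparison (8340 genes). In the same order, recovery was 29%, 52% and 65% at 2-fold and 78%, 92% and 96% at 3-fold, and 1, 11 and 5 unchanged genes were called. The dispersion was set and not taken from these data, and simulated differences between groups did not vary over stages. Recovery and false calls in the real tests can therefore differ from these.

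Named genes were members with a symbol: the 20 largest ratios, the 10 largest differences in CPM, the 2 largest ratios in each list, the 3 largest differences among members called higher in each class comparison, and the 3 genes on either side of each threshold. Other genes named were chosen after their values were seen. The members and lists were chosen with earlier results of these data known. Alternatives were DESeq2 1.42.0, other scalings, minimums and clusterings, no block, each library left out and, added after the data were seen, a preneural-like cluster of mixed markers left out.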

Additional observations from a re-analysis of the deposited data

Results flagged for a closer look

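In 5 cases a member was lower at each step from 4S to 13S within a class while it was higher at each step, with separate intervals, in at least 1 other class. In blood island-like cells PRRX1 was at 27.1, 12.5, 11.4 and 2.78 CPM, a ratio of 13S to 4S of 0.103, against a higher level at every step in 3 other classes. LIMD2 was there at 64.1, 62.6, 42.6 and 28.7 CPM, a ratio of 0.447, with 5 classes the other way. ID4 was at 174, 106, 75.6 and 58.3 CPM in blood island-like cells, a ratio of 0.335, with 2 classes the other way. The gene listed as ENSGALG00000002988 had a ratio of 0.359 in neural-like cells, from 92.3 to 33.1 CPM, and ENSGALG00000050232 had a ratio of 0.513 in notochord-like cells, from 64.4 to 33.0 CPM. The difference between classes was not tested, since each stage had 1 library.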

How the results depend on the processing

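The number of members depended on the scale and minimums. It was 216 with totals that leave out ribosomal protein, mitochondrial and globin genes (66 of the 85 among them), 35 with a minimum of 100 CPM, 1291 with no minimum, 425 without 7S and 22 where every step needed separate intervals. With TMM factors it was 110, and 60 of the 85 members were among them. With each cell thinned to 2500 UMIs it was 92, with 59 of the 85 among them. With cells weighted equally it was 86, with 65 of the 85. IL17RD and FGF8 kept the order in all 6 settings of cells and scale, the main one included, and FGF18 in 4. Ratios of 31 named members took 155 values under alternatives, of which 79 lay within counting error, 76 moved and 0 fell under 1. The alternative with all deposited cells could not move a ratio of 13S to 4S, since every cell removed was at 7S. Its values are counted among the 79. The number of members in any list was 6 with 100 CPM in place of 16. The part of the summed difference within classes was 94.9%, and 92.9% with shares at 4S and levels at 13S or 75.8% with each library clustered on its own. Without the library as replicate block, 16.3% of member and class pairs were called in place of 44.7%, 18 members in place of 37 between somitic mesoderm-like and PXM-like cells and 9 in place of 26 in the neural comparison. Leaving out each library in turn gave 31.2% to 50.3%, 25 to 44 and 16 to 33. Of 508 values for 47 named calls under alternatives, 473 kept the call, 35 lost it, 19 of these without the block, and 0 turned. Lower in both lineage comparisons under the 11 alternatives of the somitic comparison and the 12 of the neural one were 9 of the 13 members. The cause of these differences was not tested. Stages had 1 library each, the 7S library was shallow, and classes were rebuilt here, which limits values in small classes.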
